A study of Mus musculus with 10 samples.

Results

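The T cell genes described here were *Cd3d*, *Cd3e*, *Cd3g*, *Cd4*, *Cd8a*, *Cd8b1*, *Trbc1*, *Trbc2*, *Foxp3* and *Areg*. They were a named list of T cell and regulatory T cell genes. All 10 were found by Ensembl identifier among the 25700 genes counted. The counts came from bulk RNA sequencing of regenerating tibialis anterior (TA) muscle from 5 Pax7Cre and 5 miR-501KO mice. Cardiotoxin, a snake venom toxin that kills muscle fibers and starts their regeneration, had been injected into the muscle 6 days before, and each library is 1 mouse.

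All mice were 12-week-old C57BL/6 males treated with cardiotoxin. In the labels, the Pax7Cre mice had the genotype wild type and the miR-501KO mice miR-501 -/-. The design text gives Pax7Cre against Pax7CremiR-501fl/Y, so both groups carried the Pax7Cre allele, and the miR-501KO males carried the floxed allele on their X chromosome. Per the methods, Cre was driven by the promoter of *Pax7*, a gene of muscle stem cells, and excised the miR-501 precursor in the myogenic lineage. T cells are not of that lineage, so these counts describe T cell transcripts in muscle whose myogenic cells were the target of the deletion. *Mir501* was not among the genes counted, and the deletion was not checked here.

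T cells enter injured muscle after the first wave of neutrophils and macrophages. Each carries a T cell receptor, made of an alpha and a beta chain in most T cells, that signals through the CD3 chains. The co-receptors CD4 and CD8 assign it to class II or class I antigen presentation. Regulatory T cells, which depend on the transcription factor FOXP3, are known in injured muscle for restraining inflammation and for releasing amphiregulin, a growth factor that acts through the epidermal growth factor (EGF) receptor.

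Each library held 18609222 to 24753258 reads on genes. Values below are reads per mouse as deposited, or CPM, which are reads scaled to a common library total after TMM factors, which correct for differences in library composition. Muscle and immune genes were both present. Genes of mature fibers summed to 31249 to 86314 CPM and those of regenerating fibers to 5478 to 8000 CPM, and 12 macrophage markers summed to 5098 to 7207 CPM. The 10 T cell genes together reached 38.2 to 72.6 CPM, and *Cd4* made up the greater part of it in every mouse, though only just in Pax7Cre mouse 2 (36.9 of 72.6 CPM) and miR-501KO mouse 1 (26.7 of 52.5 CPM). Pax7Cre mouse 2 stood apart, with the highest sum of mature fiber genes, the lowest sum of macrophage markers and the lowest TMM factor, 0.884 where the others ran from 0.942 to 1.13. The counts of each gene list below are also given without it.

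No T cell gene differed between the genotypes by edgeR's quasi-likelihood test with Benjamini-Hochberg adjustment over all 14410 genes tested. *Areg* was too low to enter that test, so it covered 9 of the 10 genes, and 0 of those 9 were called at an adjusted p under 0.05, where 0% of all genes were called. At an unadjusted p under 0.05, 0 of the 9 were higher and 0 were lower, beside 0.382% of all genes higher and 0.666% lower. With single mice left out, 1 of the 9 passed once, *Cd4*, lower without miR-501KO mouse 3 (edgeR p 0.0285, adjusted p 1.00), where 0.718% of all genes were lower. Among the 9, 5 had a log2 fold change above 0 and the median was 0.07. Over all genes tested, 47.9% were above 0 and the median was -0.0042.

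The CD3 chains, which carry the receptor's signal into the cell, were among the low genes of the list. *Cd3d* had 42, 69, 33, 35 and 29 reads in Pax7Cre mice 1 to 5 and 47, 47, 55, 26 and 63 reads in miR-501KO mice 1 to 5. That was 2.02 ± 0.930 CPM in Pax7Cre and 2.09 ± 0.486 CPM in miR-501KO (SD, n = 5 each). Pax7Cre mouse 2 was the highest of all 10 mice and miR-501KO mouse 4 the lowest, with the other mice of both genotypes mixed between them. The log2 fold change of miR-501KO over Pax7Cre was 0.07 (SE 0.275, 95% interval -0.53 to 0.66).

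*Cd3e*, the CD3 epsilon chain, had 37, 58, 13, 41 and 28 reads in Pax7Cre and 44, 56, 46, 12 and 70 reads in miR-501KO. The means were 1.68 ± 0.864 and 1.98 ± 0.904 CPM (SD, n = 5 each). Each genotype held 1 mouse far under its others, Pax7Cre mouse 3 and miR-501KO mouse 4, and the genotypes overlapped over nearly their whole range. Its fold change on the log2 scale was 0.25 (SE 0.388, 95% interval -0.59 to 1.09), the widest interval of the 9 genes.

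*Cd3g*, the CD3 gamma chain, had 61, 97, 40, 46 and 56 reads in Pax7Cre and 90, 77, 52, 26 and 68 reads in miR-501KO. These were 2.91 ± 1.29 CPM and 2.73 ± 0.968 CPM (SD, n = 5 each), with Pax7Cre mouse 2 again highest and miR-501KO mouse 4 again lowest. Its log2 fold change was -0.08 (SE 0.306), and without Pax7Cre mouse 2 it was 0.22. In the genome the CD3 genes sit side by side on chromosome 9 (GRCm38). *Cd3g* lies at chr9:44969572-44980431 on the minus strand, *Cd3d* at chr9:44981786-44987339 on the plus strand and *Cd3e* at chr9:44998740-45009627 on the minus strand. Only 1354 bases separate *Cd3g* from *Cd3d*, and 11400 bases separate *Cd3d* from *Cd3e*.

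*Trbc1* and *Trbc2* encode the alternative constant regions of the T cell receptor beta chain. They lie 6848 bases apart on the plus strand of chromosome 6 (GRCm38), *Trbc1* at chr6:41538218-41539881 and *Trbc2* at chr6:41546730-41548352. Since reads were 100 bases long, how far they can be told apart depends on where the copies differ. The 375 bases of exon 1 differ at 1 position, C260A, counted from the exon's first base with the *Trbc1* base first. It is shown in capitals below in the 101 bases around it, chr6:41538427-41538527 and chr6:41546939-41547039, both on the plus strand.

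Trbc1 exon 1, part: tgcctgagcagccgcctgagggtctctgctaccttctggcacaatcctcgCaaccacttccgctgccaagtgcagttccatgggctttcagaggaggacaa

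Trbc2 exon 1, part: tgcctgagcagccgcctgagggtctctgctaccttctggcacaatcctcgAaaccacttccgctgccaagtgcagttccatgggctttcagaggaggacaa

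In contrast, exon 3, with 107 bases in each gene, differs at 15 positions. It is shown whole, with the differing bases in capitals, from chr6:41539229-41539335 for *Trbc1* and chr6:41547772-41547878 for *Trbc2* on the plus strand.

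Trbc1 exon 3: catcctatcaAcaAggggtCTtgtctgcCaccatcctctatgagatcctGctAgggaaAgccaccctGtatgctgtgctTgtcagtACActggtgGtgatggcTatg

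Trbc2 exon 3: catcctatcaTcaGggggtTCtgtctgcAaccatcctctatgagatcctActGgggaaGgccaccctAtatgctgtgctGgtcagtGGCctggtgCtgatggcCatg

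Of the 638 windows of 100 bases in the *Trbc1* transcript, 183 (28.7%) occur unchanged in that of *Trbc2*, and the same 183 are 30.9% of the 593 windows of *Trbc2*. A read from such a window cannot be assigned to 1 of the genes, and how such reads were counted is not given in the sources used here. The counts of each gene are therefore uncertain, relative to the other and to the rest of the list.

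*Trbc1* had 76, 129, 67, 64 and 51 reads in Pax7Cre and 126, 100, 70, 43 and 83 reads in miR-501KO, or 3.76 ± 1.77 and 3.69 ± 1.17 CPM (SD, n = 5 each). *Trbc2* had 91, 155, 56, 85 and 81 reads in Pax7Cre and 151, 127, 102, 49 and 126 reads in miR-501KO, or 4.52 ± 2.10 and 4.84 ± 1.45 CPM. For both genes Pax7Cre mouse 2 was the highest mouse and miR-501KO mouse 4 the lowest. The log2 fold changes were -0.01 (SE 0.293) for *Trbc1* and 0.11 (SE 0.285) for *Trbc2*. *Trbc1* took 45.4% ± 5.79 of the reads on the pair in Pax7Cre and 43.3% ± 3.03 in miR-501KO (SD, n = 5 each).

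**Figure D1:**
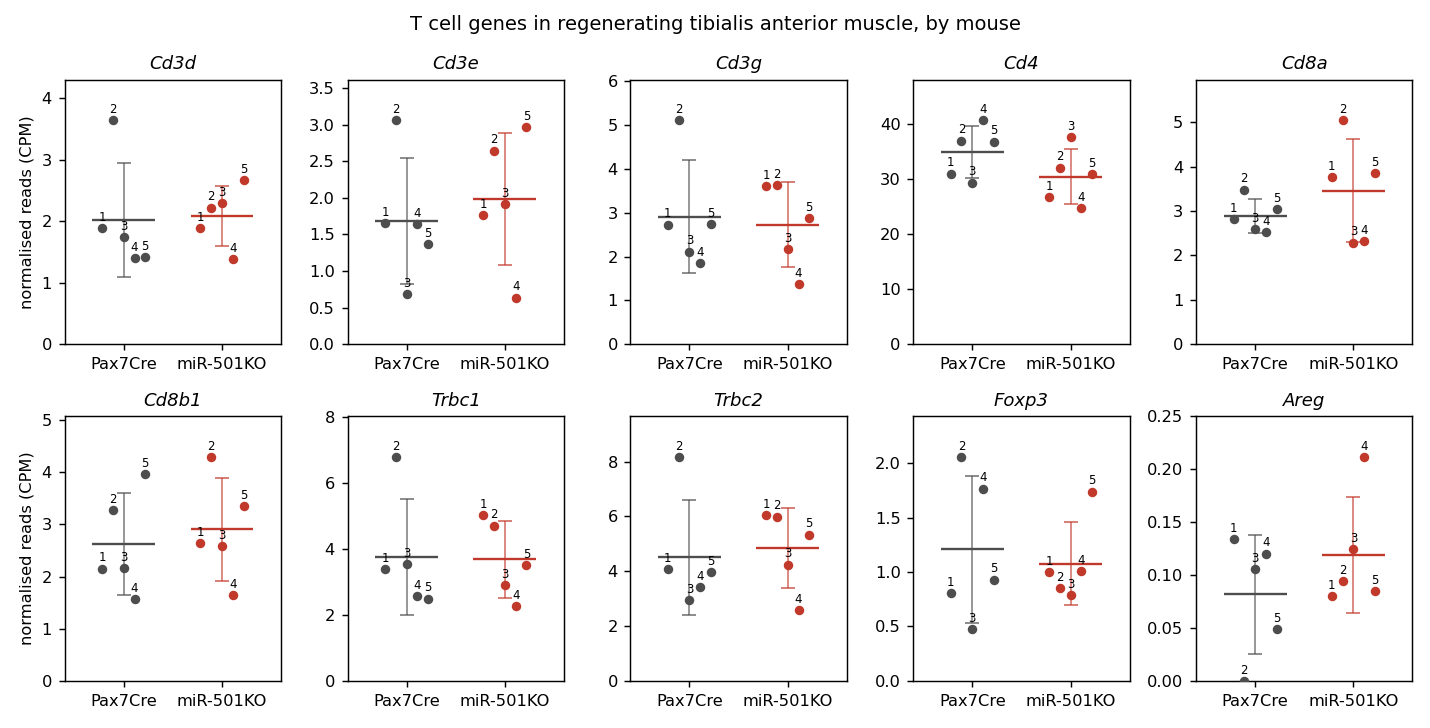
Normalised reads (CPM, y axis from 0) of each T cell gene in each mouse, with the mouse number above its point, for Pax7Cre (grey) and miR-501KO (red). The horizontal line is the mean of 5 mice and the bar is ± 1 SD. The genotypes overlap for all 10 genes, and Pax7Cre mouse 2 is the highest mouse for *Cd3d*, *Cd3e*, *Cd3g*, *Trbc1*, *Trbc2* and *Foxp3*, for *Cd3e* by 3.06 against 2.97 CPM.

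*Cd4*, the co-receptor of helper and regulatory T cells, was by far the most read of the genes. It had 691, 700, 555, 1014 and 751 reads in Pax7Cre and 667, 679, 904, 467 and 728 reads in miR-501KO. The means were 34.9 ± 4.68 and 30.4 ± 5.03 CPM (SD, n = 5 each), and miR-501KO mice 1 and 4 were below every Pax7Cre mouse while miR-501KO mouse 3 was above 4 of the 5. The log2 fold change was -0.20 (SE 0.122, 95% interval -0.46 to 0.06), with an unadjusted p of 0.124 in edgeR and an exact two-sided permutation p of 0.183. Without miR-501KO mouse 3 it was -0.29 (SE 0.116). *Cd4* lies at chr6:124864692-124888221 on the minus strand (GRCm38).

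*Cd4* is also carried by some dendritic cells in the mouse, and across the 10 mice its Pearson's r with *Cd3d*, *Cd3e* and *Cd3g* was 0.20, 0.45 and 0.19, none of them called. Within the 5 miR-501KO mice these values were 0.75, 0.63 and 0.23, and within the 5 Pax7Cre mice -0.020, 0.57 and 0.11, given as a description. There were 3.13 to 8.31 *Cd4* reads for each read on the 3 CD3 genes, a ratio that was lowest in Pax7Cre mouse 2 and highest in Pax7Cre mouse 4. The dendritic and macrophage markers were all present. Dendritic markers summed to 316 to 397 CPM in Pax7Cre and 343 to 381 CPM in miR-501KO, and macrophage markers to 5098 to 7207 and 5367 to 6370 CPM. Across the 10 mice, the median Pearson's r of *Cd4* with the 12 dendritic markers was -0.25 and with the 12 macrophage markers 0.036. The part of these cells in the *Cd4* reads was not tested.

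*Cd8a* and *Cd8b1*, the chains of the co-receptor of cytotoxic T cells, lie 35932 bases apart on the plus strand of chromosome 6 (GRCm38), at chr6:71373427-71379173 and chr6:71322788-71337494. *Cd8a*, which some dendritic cells also carry, had 63, 66, 49, 63 and 62 reads in Pax7Cre and 94, 107, 55, 44 and 91 reads in miR-501KO. That was 2.89 ± 0.387 and 3.46 ± 1.16 CPM (SD, n = 5 each). The 5 Pax7Cre mice were close to each other, and the miR-501KO mice lay on both sides of them, mice 1, 2 and 5 above all 5 and mice 3 and 4 below all 5. The log2 fold change was 0.26 (SE 0.218, 95% interval -0.21 to 0.73).

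*Cd8b1* had 48, 62, 41, 39 and 81 reads in Pax7Cre and 66, 91, 62, 31 and 79 reads in miR-501KO, or 2.62 ± 0.972 and 2.90 ± 0.987 CPM (SD, n = 5 each). It was highest in miR-501KO mouse 2 (4.29 CPM), followed by Pax7Cre mouse 5 (3.97), miR-501KO mouse 5 (3.35) and Pax7Cre mouse 2 (3.27), and lowest in Pax7Cre mouse 4 (1.56). Its log2 fold change was 0.16 (SE 0.282).

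*Foxp3*, which encodes the transcription factor that defines regulatory T cells, lies at chrX:7573644-7595245 on the plus strand (GRCm38). It had 18, 39, 9, 44 and 19 reads in Pax7Cre and 25, 18, 19, 19 and 41 reads in miR-501KO, or 1.21 ± 0.672 and 1.08 ± 0.381 CPM (SD, n = 5 each). Reads were high in 3 mice, Pax7Cre mice 2 and 4 and miR-501KO mouse 5, and the other 7 mice had 25 or fewer. The log2 fold change was -0.17 (SE 0.366, 95% interval -0.96 to 0.63), and CPM varied by 45.5% over the 10 mice where counting alone would give 20.0%. Set against the CD3 chains, there were 18.7 ± 10.1 *Foxp3* reads per 100 CD3 reads in Pax7Cre and 17.3 ± 7.94 in miR-501KO (SD, n = 5 each), with the highest ratios in Pax7Cre mouse 4 (36.1) and miR-501KO mouse 4 (29.7).

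Exons of *Foxp3* overlap those of *Ccdc22* and *Ppp1r3f* on the opposite strand. Exons of *Flicr* overlap those of *Foxp3* on the same strand, and *Flicr* was not among the genes counted, so reads from shared stretches cannot be told apart from those of *Foxp3*. The libraries kept the strand, but the strand setting of the counting is not given in the sources used here. *Ccdc22* had 407 to 616 reads and *Ppp1r3f* 45 to 70 reads per mouse. Across the 10 mice their Pearson's r with *Foxp3* was -0.33 and -0.45, given as a description.

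*Areg*, which encodes amphiregulin, lies at chr5:91139599-91148432 on the plus strand (GRCm38) and was close to absent. It had 3, 0, 2, 3 and 1 reads in Pax7Cre and 2, 2, 3, 4 and 2 reads in miR-501KO. The 9 reads in Pax7Cre and 13 in miR-501KO made 0.0819 ± 0.0561 and 0.119 ± 0.0547 CPM (SD, n = 5 each), and the exact two-sided permutation p was 0.341. The 0 reads of Pax7Cre mouse 2 allow up to 0.158 CPM, which covers 4 of the 5 miR-501KO values, counting error only. At this depth a difference in *Areg* was not detectable.

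**Figure D2:**
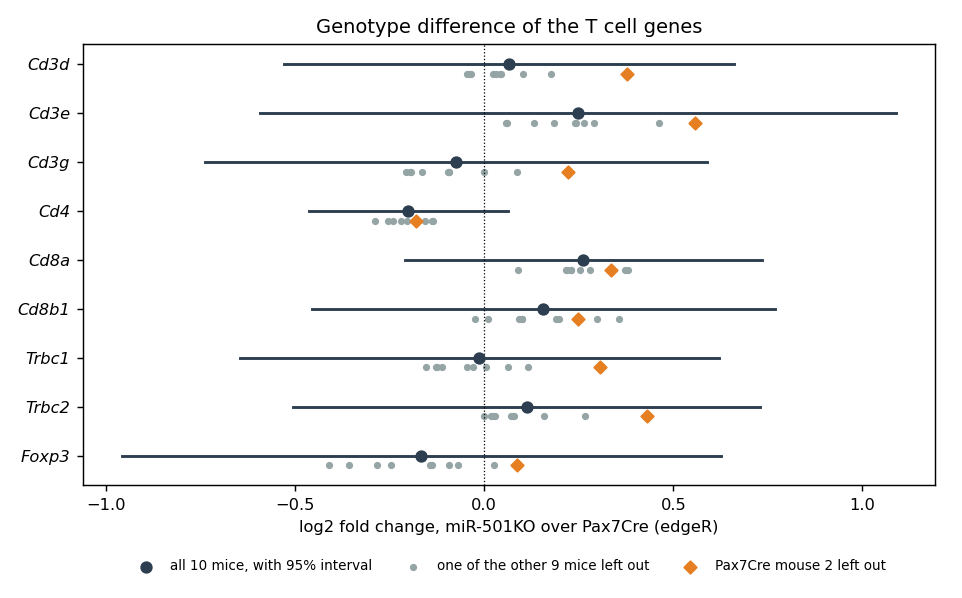
Log2 fold change of miR-501KO over Pax7Cre from edgeR (x axis) for the 9 T cell genes tested. Dark points and lines are the estimate and its 95% interval over 10 mice, grey points the estimates with each of the other 9 mice left out in turn, and orange diamonds the estimate without Pax7Cre mouse 2. Every interval holds 0, and leaving out Pax7Cre mouse 2 moves all 9 estimates upward, for *Cd3d* from 0.07 to 0.38.

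The spread between mice was the main limit for most of these genes. *Cd3e* varied by 46.3% over the 10 mice (coefficient of variation of CPM) where counting alone would give 15.7%, and *Cd4* by 15.8% against 3.74%. Only *Areg*, at 55.5% against 67.4%, varied by no more than counting gives. In bulk tissue, fewer T cells and less RNA per T cell cannot be told apart.

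Single mice moved the whole list, in both directions. Without Pax7Cre mouse 2, 8 of the 9 genes had a log2 fold change above 0 and their median went from 0.07 to 0.31, with *Cd3e* at 0.56 and *Trbc2* at 0.43, while *Cd4* stayed below 0 at -0.18. None was called, with adjusted p-values of at least 0.996 in edgeR over these and all other fits that left out 1 mouse. On the exact two-sided permutation test without that mouse, the p-values of the 10 genes ran from 0.143 for *Cd3d* to 0.714 for *Foxp3*. miR-501KO mouse 4, the lowest mouse for *Cd3d*, *Cd3e*, *Cd3g*, *Trbc1* and *Trbc2*, had a like effect when left out, with 7 of 9 genes above 0 and a median of 0.18. The median was below 0, with 4 of 9 genes above 0, without Pax7Cre mouse 5 (-0.036), miR-501KO mouse 2 (-0.023) or Pax7Cre mouse 3 (-0.00072).

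Pax7Cre mouse 2 was also highest among the 10 mice for the cytotoxic and NK cell genes, which summed to 170 CPM beside 83.5 to 118 in the other Pax7Cre mice and 91.3 to 141 in miR-501KO. Its B cell markers, at 55.6 CPM, lay within the 49.4 to 65.9 CPM of the other mice. The part of this mouse's muscle composition in its T cell reads was not tested. Scaled to leukocytes, as reads per 1000 reads on 12 genes shared by leukocytes, the genotypes again overlapped, with exact permutation p-values of 0.238 for *Cd4* to 0.984 for *Cd3d*. On that scale *Trbc2* was at 3.41 ± 1.78 in Pax7Cre and 3.47 ± 0.824 in miR-501KO (SD, n = 5 each).

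To compare levels between genes, CPM was divided by exon length in kilobases. On this scale *Cd4* was highest, with a mean level of 8.10 CPM per kb over the 10 mice (range 6.14 to 10.1), followed by *Trbc2* at 6.76 (3.75 to 11.8) and *Trbc1* at 4.98 (3.04 to 9.09). Compared within each mouse, *Cd4* was above *Trbc2* in 6 of 10 mice and above *Trbc1* in 9 of 10, and *Trbc2* was above *Trbc1* in 9 of 10, so *Cd4* and *Trbc2* had no fixed order. How reads shared by *Trbc1* and *Trbc2* were counted is not known, so the places of these genes beside *Cd4* are uncertain. Then came *Cd8b1* at 1.86 (1.05 to 2.90), *Cd3d* at 1.13 (0.759 to 2.01), *Cd8a* at 0.873 (0.630 to 1.39), *Cd3g* at 0.863 (0.421 to 1.57) and *Cd3e* at 0.450 (0.156 to 0.750). The lowest *Trbc1* mouse was above the highest *Cd8b1* mouse, and *Cd8b1* was above *Cd3d* and *Cd8a* within all 10 mice. *Cd3d* was above *Cd8a* in 8 of 10 mice, *Cd8a* above *Cd3g* in 5 of 10, and *Cd3g* above *Cd3e* in 10 of 10. *Foxp3* at 0.250 (0.104 to 0.450) was below *Cd3e* in 9 of 10 mice, and *Areg* at 0.0827 (0 to 0.174) was below *Foxp3* in all 10.

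Across the 10 mice, pairs of the CD3, *Trbc* and *Cd8* genes had higher r than pairs with *Cd4*. The 8 genes with at least 10 reads in every mouse made 28 pairs, compared by Pearson's r and Spearman's rho of log2(CPM + 0.5), with permutation p-values adjusted over the 28. In the 21 pairs without *Cd4*, r ran from 0.47 to 0.95 with a median of 0.75, and 13 pairs had an adjusted p under 0.05 by r and 11 by rho. In the 7 pairs with *Cd4*, r ran from -0.093 to 0.45 with a median of 0.20, and 0 pairs were called by either measure, with unadjusted permutation p-values of 0.190 or more. Over all pairs of the 13718 genes with this many reads, the median r was -0.0015, and 3.97% of pairs had an r of at least 0.72, the lowest among the 13. Whether the 2 kinds of pair differ was not tested. The genes of each pair share their libraries, and *Trbc1* and *Trbc2* share sequence.

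The closest pair was *Cd3g* and *Trbc2*, with r = 0.95 (permutation p 0.00011, adjusted 0.00308, n = 10) and rho = 0.93 (permutation p 0.00035, adjusted 0.0049). Without the 2 mice farthest from the median of *Cd3g*, r was 0.88. *Cd3e* and *Trbc2* had r = 0.88 (permutation p 0.00104, adjusted 0.00854, n = 10) and rho = 0.90, with r = 0.77 without the 2 farthest mice. *Trbc1* and *Trbc2* had r = 0.87 (permutation p 0.00122, adjusted 0.00854, n = 10) and rho = 0.79, with r = 0.71 without the 2 farthest. *Cd8a* and *Cd8b1*, chains of 1 co-receptor, had r = 0.76 (permutation p 0.0104, adjusted 0.0295, n = 10) and rho = 0.77, with r = 0.59 without the 2 farthest. Over all 21 pairs without *Cd4*, the median r was 0.66 when the 2 farthest mice were left out.

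**Figure D3:**
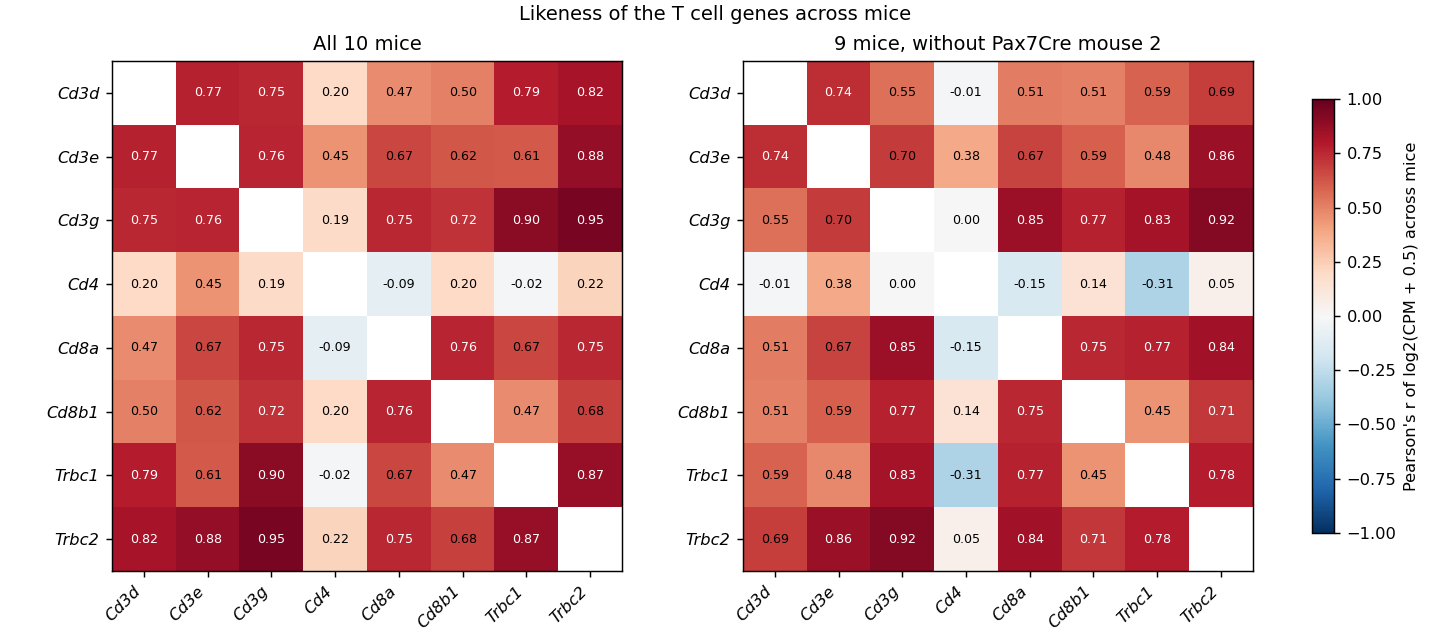
Pearson's r of log2(CPM + 0.5) across mice for each pair of the 8 genes with at least 10 reads in every mouse, over 10 mice (left) and without Pax7Cre mouse 2 (right). Colour runs from blue at -1 to red at 1. The row and column of *Cd4* stay pale, with r from -0.093 to 0.45 on the left, beside 0.47 to 0.95 for the other pairs.

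Single mice decided how many pairs passed. Without Pax7Cre mouse 2 the median r of the pairs without *Cd4* was 0.71, and 5 of 28 pairs passed. Without miR-501KO mouse 4 it was 0.70 and 4 pairs passed, and without Pax7Cre mouse 3 or 4, 8 or 7 passed. No pair with *Cd4* passed when any 1 mouse was left out, though the median r of these pairs was 0.44 without Pax7Cre mouse 4, 0.0042 without Pax7Cre mouse 2 and -0.12 without miR-501KO mouse 4. On the leukocyte scale the medians were 0.75 for the pairs without *Cd4* and 0.25 for those with it. *Foxp3*, with 9 reads in its lowest mouse, was added after its values were seen, and its closest member was *Cd3e*, with r = 0.60 (permutation p 0.0676, n = 10) and rho = 0.32 (permutation p 0.369). *Cd3d* and *Foxp3* had r = 0.43 (permutation p 0.215, n = 10) and rho = 0.10 (permutation p 0.786). None of the 8 pairs with *Foxp3* passed.

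**Figure D4:**
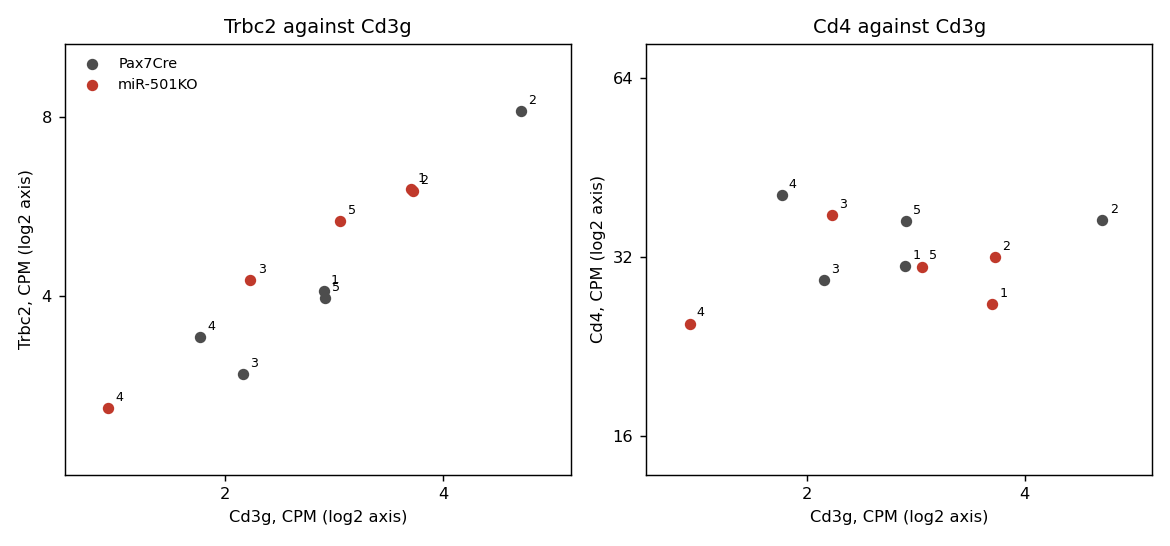
*Trbc2* (left) and *Cd4* (right) against *Cd3g*, in CPM on log2 axes, with 1 point per mouse, numbered, for Pax7Cre (grey) and miR-501KO (red). *Trbc2* rises with *Cd3g* from miR-501KO mouse 4 to Pax7Cre mouse 2 (r = 0.95), while *Cd4* shows no such slope (r = 0.19).

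The genes most like *Cd4* over the 10 mice, among 13710 others with at least 10 reads in every mouse, were *Zhx2* (r = 0.88), *Eln* (0.88), *Tmc6* (0.88), *Abca3* (0.87) and *Thra* (0.87). Without Pax7Cre mouse 2 their r lay between 0.88 and 0.93. *Eln* encodes elastin, a matrix protein, and *Thra* a thyroid hormone receptor, and none of the 5 was on a list of immune genes used here. The same ranking for the other members, added after values were seen, held *Trac*, the T cell receptor alpha constant gene (r = 0.94), and *Lck* (0.92) among the closest for *Trbc2*. For *Cd3e* it gave *Sh2d2a* (0.95), *Cd27* (0.93) and *Trac* (0.92). For *Trbc1* it gave *Ighm*, an immunoglobulin heavy chain gene (0.96), and *Stat4* (0.95). The closest were *Polr2l* (0.91) for *Cd3d*, *Saxo2* (0.97) for *Cd3g*, *Gm44423* (0.87) for *Cd8a*, *Gipc3* (0.91) for *Cd8b1* and *Tbc1d22b* (0.97) for *Foxp3*. Of the 5 closest genes, 3 were on an immune list used here for *Cd3e*, 2 each for *Cd3g* and *Trbc2*, 1 each for *Cd3d* and *Trbc1*, and 0 for *Cd4*, *Cd8a*, *Cd8b1* and *Foxp3*. These values are the highest of many and carry no test.

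The members were also set beside other genes of the T cell receptor and its signalling. Their median r with 29 of these genes was 0.72 for *Trbc2*, 0.66 for *Cd3g*, 0.63 for *Trbc1*, 0.58 for *Cd3e*, 0.57 for *Cd3d*, 0.49 for *Cd8a*, 0.44 for *Foxp3*, 0.32 for *Cd8b1* and 0.13 for *Cd4*. With 18 cytotoxic and NK cell genes and 12 macrophage markers, the medians were 0.70 and 0.027 for *Trbc2* and -0.11 and 0.036 for *Cd4*. Without Pax7Cre mouse 2, the 3 medians of *Trbc2* were 0.57, 0.56 and 0.42, and those of *Cd4* 0.0043, -0.34 and 0.17. These differences were not tested.

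Of 30 other genes for T cell receptor chains and signalling, all passed the filter, 9 were above 0 and the median log2 fold change was -0.04. At an unadjusted p under 0.05, 0 were higher and 1 was lower, and none had an adjusted p under 0.05. The gene that was lower was *Cd28*, the co-stimulatory receptor that T cells need for full activation. It had 204, 188, 203, 231 and 202 reads in Pax7Cre and 199, 182, 204, 93 and 188 reads in miR-501KO, and in CPM every miR-501KO mouse was below every Pax7Cre mouse. Over all genes tested, 0.0763% lay below in every mouse in this way and 0.0625% above.

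*Cd28* was at 9.79 ± 0.633 CPM in Pax7Cre and 7.59 ± 1.52 CPM in miR-501KO (SD, n = 5 each). Its log2 fold change was -0.36 (SE 0.137), with an edgeR p of 0.0208 and an adjusted p of 1.00. The exact two-sided permutation p was 0.00794, the smallest that 5 mice against 5 can give, before any adjustment. miR-501KO mouse 4 was far below the rest, at 4.93 CPM beside 7.96 to 8.59 CPM, and without it the log2 fold change was -0.24. In Pax7Cre mouse 2, where the CD3 genes were highest, *Cd28* was at 9.92 CPM, beside 9.14 to 10.7 CPM in the other Pax7Cre mice. Whether the *Cd28* reads came from T cells was not tested. The most read genes of this list had log2 fold changes of -0.01 for *Thy1* (SE 0.126), 0.02 for *Fyb* (SE 0.0725) and -0.05 for *Gimap4* (SE 0.127). All 3 were read far more than the CD3 genes, with *Thy1* at a mean of 113 CPM in Pax7Cre. *Thy1* was lowest in Pax7Cre mouse 2, at 78.6 CPM, where the CD3 genes were highest. The part of other cell types in the reads of these 3 genes was not tested.

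Of 22 other regulatory T cell genes, 20 were tested, 9 were above 0, the median was -0.0079 and 0 passed an unadjusted p under 0.05 in either direction. The most read were *Entpd1*, which encodes the ectonucleotidase CD39, at 83.8 ± 5.89 CPM in Pax7Cre and 79.9 ± 1.67 CPM in miR-501KO, *Lrrc32* at 26.8 ± 3.76 and 27.9 ± 4.21 CPM (SD, n = 5 each), and *Il33*, an alarmin that expands muscle regulatory T cells, with 332 to 578 reads per mouse, where the log2 fold change was -0.15 (SE 0.152). Other cell types express these 3 genes, and whether regulatory T cells expressed them here was not tested. The farthest from 0 was *Ctla4*, an inhibitory receptor, with 4 to 28 reads in a mouse and -0.75 as its log2 fold change (SE 0.405, edgeR p 0.0889).

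Cytotoxic and NK cell genes numbered 20, of which 19 were tested, 7 were above 0, the median was -0.04 and 0 passed in either direction. *Ccl5*, a chemokine of activated T cells, was at 26.4 ± 8.98 CPM in Pax7Cre and 27.2 ± 4.15 CPM in miR-501KO (SD, n = 5 each), *Klrk1*, an activating receptor, had 204 to 515 reads per mouse with -0.02 as its log2 fold change (SE 0.244), and *Gzma*, a granzyme, was at 9.40 ± 3.81 and 8.20 ± 2.05 CPM (SD, n = 5 each). *Gzmb*, another granzyme, was farthest from 0, with 2.37 ± 0.801 and 3.66 ± 1.91 CPM and a log2 fold change of 0.64 (SE 0.336, edgeR p 0.0809). *Ifng* did not pass the filter, with 0 to 17 reads per mouse.

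*Areg* belongs to the EGF family, and 13 other ligands and receptors of it were counted. Of these 9 were tested, all 9 were above 0 with a median of 0.09 (7 of 9 with library totals in place of TMM, and 6 of 9 with a median of 0.046 without Pax7Cre mouse 1), and 0 passed in either direction. Receptors were well read, *Egfr* at 75.7 ± 11.1 CPM in Pax7Cre and 78.4 ± 4.06 CPM in miR-501KO, *Erbb3* at 26.1 ± 5.42 and 27.8 ± 3.15 CPM and *Erbb2* at 16.5 ± 3.99 and 18.3 ± 1.27 CPM (SD, n = 5 each). Among ligands *Hbegf* had 223 to 326 reads and *Egf* 83 to 237 reads per mouse, well over *Areg*. *Tgfa*, with 1 to 22 reads, was farthest from 0 at a log2 fold change of 0.55 (SE 0.417, edgeR p 0.207).

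**Figure D5:**
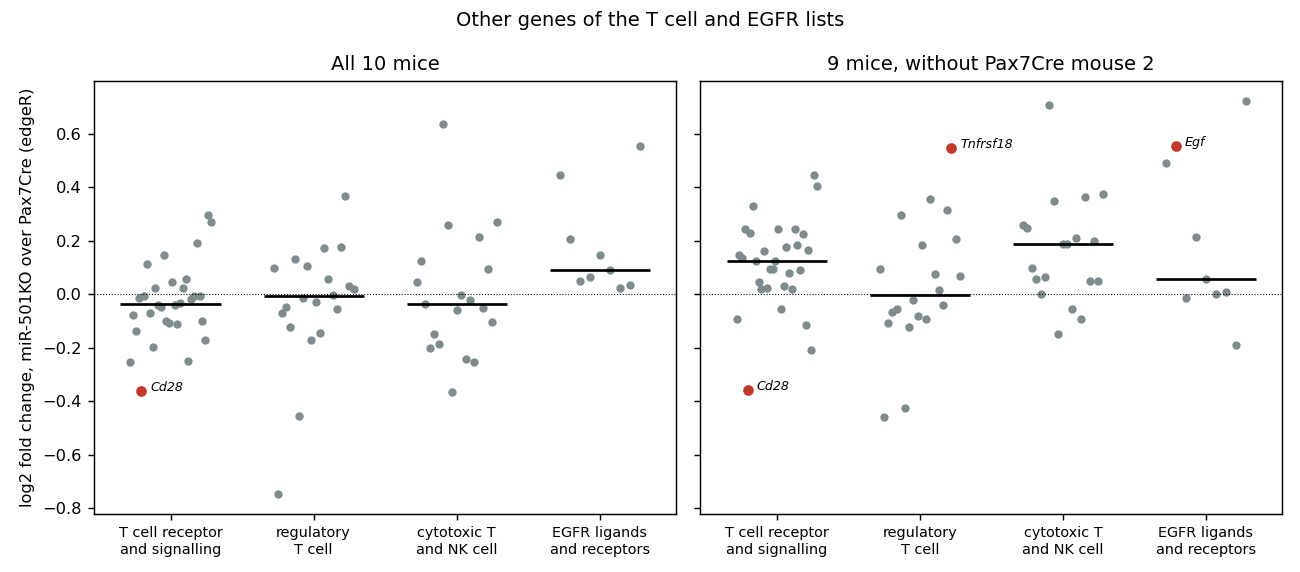
Log2 fold change of miR-501KO over Pax7Cre from edgeR (y axis) for each gene of 4 lists, over 10 mice (left) and without Pax7Cre mouse 2 (right). Each point is 1 gene, black lines are medians and named red points have an unadjusted p under 0.05. The median of the T cell receptor and signalling list goes from -0.04 to 0.13 and that of the cytotoxic and NK cell list from -0.04 to 0.19.

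The direction of the first 3 of these lists changed when single mice were left out. Without Pax7Cre mouse 2, 25 of 30 receptor and signalling genes were above 0 with a median of 0.13, and 16 of 19 cytotoxic and NK cell genes with a median of 0.19, still with 0 genes higher at an unadjusted p under 0.05 in either list. Without miR-501KO mouse 4 the receptor and signalling list had 20 of 30 above 0 with a median of 0.04, the cytotoxic and NK cell list 11 of 19 with 0.02 and the regulatory T cell list 14 of 20 with 0.05. Without miR-501KO mouse 3 the cytotoxic and NK cell list had 11 of 19 above 0 with a median of 0.03. For regulatory T cell genes the count was 10 of 20 without Pax7Cre mouse 2, where *Tnfrsf18*, a receptor of the tumour necrosis factor family, reached a log2 fold change of 0.55 (edgeR p 0.0323, adjusted p 0.999). *Egf* reached 0.55 in the same fit (edgeR p 0.0340, adjusted p 0.999).

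Other single mice gave calls at an unadjusted edgeR p under 0.05 in these lists too, none with an adjusted p under 0.05. Over all genes tested in the 10 fits on 9 mice, 0.269% to 1.84% were higher and 0.408% to 1.67% lower at that p. Among regulatory T cell genes, *Ctla4* was lower without Pax7Cre mouse 5 (log2 fold change -0.92, p 0.0387), and *Ikzf4* was lower without that mouse (-0.55, p 0.0249) or without miR-501KO mouse 2 (-0.58, p 0.0237). *Gzmb* was higher without miR-501KO mouse 4 (0.81, p 0.0203) or Pax7Cre mouse 1 (0.81, p 0.0464). In the EGF family, *Erbb2* was higher without Pax7Cre mouse 4 (0.29, p 0.0205). All genes lower made up 0.792% without Pax7Cre mouse 5 and 0.703% without miR-501KO mouse 2, and all genes higher 0.448% without miR-501KO mouse 4, 0.455% without Pax7Cre mouse 1 and 1.57% without Pax7Cre mouse 4. *Cd28* was lower in all 10 of these fits.

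No marker of another cell type had an adjusted p under 0.05. Of 12 dendritic markers, 7 were above 0 and 1 was lower at an unadjusted p under 0.05, *Cd209a*, at 11.3 ± 1.87 CPM in Pax7Cre and 8.74 ± 1.63 CPM in miR-501KO (SD, n = 5 each, log2 fold change -0.37, edgeR p 0.0256, adjusted p 1.00, exact two-sided permutation p 0.0714). The most read dendritic markers were *Fscn1*, *Bst2* and *Itgax*, with log2 fold changes of 0.05, -0.01 and 0.11. Of 12 B cell markers 5 were tested and 3 were above 0, the most read being *Cd37*, *Cd22* and *Cd79b* with log2 fold changes of -0.13, 0.0032 and 0.21. The B cell marker *Ms4a1* had 2 to 10 reads per mouse. Macrophage markers (9 of 12 above 0, or 3 of 12 with library totals in place of TMM, with *Lyz2* at -0.02, *C1qb* at 0.02, *C1qa* at 0.02 and *Mrc1* farthest from 0 at -0.22) held no gene with an unadjusted p under 0.05. The same held for the genes shared by leukocytes (8 of 12 above 0, with *Laptm5* at -0.03, *Lcp1* at 0.05, *Ptprc* at -0.03 and *Cd52* farthest from 0 at 0.17). Mature fiber genes had 10 of 12 above 0, with log2 fold changes of 0.04 for *Mylpf*, 0.13 for *Tnnt3*, 0.13 for *Ckm* and 0.34 for *Myh1*, and regenerating fiber genes 7 of 10 (4 of 10 with library totals), with 0.18 for *Actc1*, -0.05 for *Myh8* and 0.03 for *Myh3*, none with an unadjusted p under 0.05.

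The muscle and macrophage lists moved with Pax7Cre mouse 2 as well. Without it, all 12 mature fiber genes were above 0, their median went from 0.04 to 0.34, and 4 were higher at an unadjusted edgeR p under 0.05, *Myh1* (log2 fold change 0.58, p 0.00860), *Actn3* (0.36, p 0.0172), *Ckm* (0.37, p 0.0332) and *Mb* (0.64, p 0.0372), each with an adjusted p of 0.999. Of all 14510 genes tested in that fit, 1.84% were higher and 1.28% lower. The median of the T cell genes went from 0.07 to 0.31 in the same fit, and the part of the fiber share in it was not tested. The opposite was seen without Pax7Cre mouse 4, with 3 of 12 mature fiber genes above 0 and a median of -0.085, and without miR-501KO mouse 4, with 5 of 12 and -0.0018. With Pax7Cre mouse 2 left out, 2 of 12 macrophage markers were above 0 and *Mrc1* was lower, with a log2 fold change of -0.28 (edgeR p 0.0203, adjusted p 0.999), as it was without Pax7Cre mouse 5 (-0.28, p 0.0347). *Itgam* was higher without Pax7Cre mouse 4 (0.26, edgeR p 0.0463, adjusted p 0.996), a fit in which 1.57% of all genes were higher. With the same mouse 2 of Pax7Cre left out, 2 of 10 regenerating fiber genes, 6 of 12 leukocyte genes, 2 of 5 B cell markers and 8 of 12 dendritic markers were above 0, and *Cd209a* was at -0.30 (edgeR p 0.0603). Of the 10 fits on 9 mice, 5 kept the *Cd209a* call at an unadjusted p under 0.05 and 5 did not, namely those without Pax7Cre mice 1, 2 or 3 or miR-501KO mice 1 or 3. The EGF family had 7 of 9 above 0 in that fit.

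Since the study deleted miR-501, the T cell genes were searched for its site. The mature miR-501-3p of RefSeq (GRCm38.p6, chrX:7241270-7241291, minus strand) is shown with its seed, bases 2 to 8, in capitals.

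mmu-miR-501-3p: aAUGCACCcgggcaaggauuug

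The complement of the seed, GGTGCAT, was searched on the sense strand of the annotated 3′ untranslated regions of GENCODE M21. It was found in 2 of the 10 T cell genes, beside 7.07% of the 21089 counted genes with such a region. The sites are shown with the match in capitals. That of *Cd8b1* begins at base 634 of 772 after the stop codon and that of *Trbc1* at base 131 of 216.

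Cd8b1 site: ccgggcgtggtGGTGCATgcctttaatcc

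Trbc1 site: agtcacgcataGGTGCATttgtatgtctg

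A match in letters is a description and does not show that the miRNA binds there. The log2 fold changes of these 2 genes were 0.16 and -0.01, and neither was called. *Trbc2*, whose 171 bases after the stop codon hold no match, was at 0.11. The deletion targeted the myogenic lineage, and T cells are not of it. These fold changes therefore cannot show whether a site acts in T cells.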

How the data were processed

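Total RNA (500 ng per mouse) was made into TruSeq Stranded mRNA libraries and sequenced as 100 bp single-end reads. The submitters' processing notes name STAR, featureCounts, R 3.5.1 and GRCm38.p5, and the methods an annotation called ENCODE release 91. The authors deposited raw read counts per gene for each mouse, with no normalization. How multi-mapping reads were handled is not given in the sources used here.

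Groups came from the labels. Here edgeR 4.0.16 in R 4.3.3 gave TMM factors, kept 14410 genes (filterByExpr, minimum count 10, minimum total 15) and ran the quasi-likelihood test. CPM of single genes was compared by exact two-sided permutation over mice (scipy 1.17.1), and correlations had 100000 permutations. The edgeR fit was tested on simulated counts of 14410 genes, where it recovered 91.5% of 200 genes changed by a log2 size of 1. Positions and exon lengths are from GENCODE M21. DESeq2 1.42.0 gave alternatives.

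The members and lists were chosen with earlier results of these data known. Lists of T cell receptor and signalling, regulatory T cell, cytotoxic and NK cell, EGF family, B cell, dendritic, macrophage, leukocyte, mature fiber and regenerating fiber genes matched 165 of 167 symbols. From each, the text names the 3 most read genes, those with an unadjusted p under 0.05 and the one with the largest log2 fold change, besides the 5 genes most like *Cd4*. *Sh2d2a*, *Cd27*, *Trac*, *Lck*, *Ighm*, *Stat4*, *Hbegf*, *Egf*, *Ifng*, *Ms4a1*, *Tnfrsf18*, *Actn3*, *Mb*, *Ikzf4*, *Itgam*, *Klra8*, *Cr2*, *Polr2l*, *Saxo2*, *Gm44423*, *Gipc3* and *Tbc1d22b* were named after their values were seen, and 2 genes are not reported here. P-values measure the spread between mice as labelled. Any 2 mice of a genotype differed by more than sampling noise (smallest chi-square ratio to its degrees of freedom 9.51), so no library was taken for a second deposit of another. That measure says nothing of whether the mice were independent.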

Additional observations from a re-analysis of the deposited data

Results flagged for a closer look

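In groups of 5 mice, a mouse was flagged where its gap to the nearest other mouse took up more than 0.71 of the group's range (Dixon's test). Of 116 groups tested, over the T cell genes, the list sums and the other named genes, 11 were flagged, where chance flags about 1 in 20, or 5.8.

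Pax7Cre mouse 2 was flagged as highest for 4 T cell genes. *Cd3d* was at 3.64 CPM in it beside at most 1.88 CPM in the other Pax7Cre mice. *Cd3g* was at 5.12 CPM beside 1.85 to 2.74 CPM. *Trbc1* was at 6.81 CPM beside 2.50 to 3.54 CPM, and *Trbc2* at 8.18 CPM beside 2.96 to 4.08 CPM. These genes are correlated across mice, so the 4 flags are not independent.

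*Foxp3* was highest in miR-501KO mouse 5, at 1.74 CPM beside 0.791 to 1.01 CPM. miR-501KO mouse 4 was flagged as lowest for *Cd28*, at 4.93 CPM beside 7.96 to 8.59 CPM, and for *Thy1*, at 98.1 CPM beside 113 to 118 CPM. The same mouse had the highest sum of mature fiber genes in its group, 67122 CPM beside 53315 to 56528 CPM. In miR-501KO mouse 1, *Gzma* was at 11.7 CPM beside 6.80 to 8.20 CPM and *Ptprc*, the leukocyte gene for CD45, at 160 CPM beside 123 to 132 CPM. *Actc1* was at 4014 CPM in Pax7Cre mouse 5 beside 2603 to 2796 CPM.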

How the results depend on the processing

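The spread between mice and their number set the limits here, and for *Areg* the depth. With 9 to 155 reads per mouse on the T cell genes other than *Cd4* and *Areg*, 0 to 4 on *Areg* and 5 mice per genotype, the 95% intervals of the log2 fold changes ran from -0.46 to 0.06 for *Cd4*, the narrowest, to -0.59 to 1.09 for *Cd3e*, the widest, and differences within them could not be detected. Over 152 other fits of the 9 genes tested, none was called, and the estimate changed sign in 15.

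Across all genes, 0 had an adjusted p under 0.05 in the quasi-likelihood test, where 55 were higher and 96 lower at an unadjusted p under 0.05. The same 0 was found by DESeq2's Wald test (52 higher and 98 lower unadjusted) and in each alternative except edgeR's likelihood ratio test with trended dispersion, which called 19, with 123 higher at an unadjusted p under 0.05. None of these 19 was a T cell gene, and at an unadjusted p under 0.05 that test added, among the listed genes, *Gzmb* and *Myh1* higher and *Klra8* and *Ctla4* lower. With 10 counts required in each mouse, *Ikzf4* was lower (p 0.0481), and without the filter *Cr2* (p 0.0267). The number higher at an unadjusted p under 0.05 was 36 with library totals in place of TMM, 153 without the filter and 36 where each gene needed 10 counts in all mice. The number lower was 159 without the filter. Leaving out 1 mouse gave 39 to 267 higher and 59 to 242 lower, with the extremes without miR-501KO mouse 1 for both lows, Pax7Cre mouse 2 for the high count of higher genes and Pax7Cre mouse 4 for that of lower genes. The cause was not tested.

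The log2 fold changes that changed sign with 1 mouse left out ranged from -0.045 to 0.38 for *Cd3d*, -0.21 to 0.22 for *Cd3g*, -0.023 to 0.36 for *Cd8b1*, -0.15 to 0.31 for *Trbc1*, -0.00072 to 0.43 for *Trbc2* and -0.41 to 0.086 for *Foxp3*. *Cd3e* (0.058 without miR-501KO mouse 5 to 0.56 without Pax7Cre mouse 2), *Cd8a* (0.090 without miR-501KO mouse 2 to 0.38 without miR-501KO mouse 3) and *Cd4* (-0.29 without miR-501KO mouse 3 to -0.14 without miR-501KO mouse 4) kept their sign. *Trbc1* was at 2.8e-05 with library totals, and the log2 ratio of means of *Cd3d* was -0.0042 per 1000 reads on leukocyte genes. Pairs of T cell genes with an adjusted p under 0.05 numbered 4 to 17 with 1 mouse left out, beside 13 in all mice. Without Pax7Cre mouse 2, 1 regulatory T cell gene and 1 EGF family gene were higher at an unadjusted p under 0.05, where 2 regulatory T cell genes were lower without Pax7Cre mouse 5 and 1 without miR-501KO mouse 2, and the median of the cytotoxic and NK cell list was 0.19.

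The labels number the mice of each genotype 1 to 5 without calling equal numbers pairs. Same-numbered mice had correlations of their deviations of 0.34, -0.15, 0.16, -0.30 and 0.20, so the numbers were not taken as pairs. With the number as a replicate block, 0 genes were called, 87 were higher at an unadjusted p under 0.05, *Trbc1* was at 0.013, and 12 of 12 mature fiber genes were above 0 with a median of 0.17.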
